A study of Mus musculus with 2 samples.

Results

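Replication-dependent histone genes supply the core histones H2A, H2B, H3 and H4 and the linker histone H1 that package new DNA in S phase. They were taken as every gene whose symbol begins with Hist1h, Hist2h, Hist3h or Hist4h, which gave 67 of the 32285 genes listed. Of these, 6 encode H1, 18 H2A, 18 H2B, 12 H3 and 13 H4. The study profiled the mouse D3 embryonic stem cell line on day 6 of cardiomyocyte differentiation by droplet single-cell RNA sequencing, to learn which progenitor subpopulation depends on Zbtb16. It had 1 library of a Zbtb16 knockout (labelled Zbtb16_KO) and 1 library of wild-type D3 cells (labelled Ctrl, the control below), both differentiated to the same day. The product of Zbtb16 is a transcription factor with zinc fingers. No source used here gives the deleted part of the gene, the number of clones or the number of cultures. With 1 library per group no difference between them could be tested, and each interval below is an exact 95% interval that covers counting error only.

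Most replication-dependent histone mRNAs are made in S phase, rest on the transcription factor NPAT, and end in a conserved stem-loop in place of a poly(A) tail. The stem-loop binding protein SLBP holds that end, and the mRNAs are degraded when DNA replication stops. Some of these genes also give polyadenylated transcripts that run past the stem-loop, and these are known to persist in cells that leave the cycle. Capture on oligo(dT), the usual way in droplet kits, can therefore reach such transcripts, or priming can start inside a run of A. Many members encode the same protein from nearly identical sequences, so a read may be lost or placed on a sister gene, and the level of a single member is uncertain for that reason. Several members also lie close together on chromosome 13, and no source used here says whether counting used the strand.

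The stem-loops are shown because they define the mRNA class, with the loop in capitals. They were read from GENCODE M21 transcripts on GRCm38, in which the pattern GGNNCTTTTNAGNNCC on the transcript strand was found in 44 of the 67 members and in 0.0935% of 32091 other genes.
26 genes of H1, H2A, H2B and H3: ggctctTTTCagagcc
7 genes of H4: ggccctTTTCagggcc
6 genes of H1, H2B and H3: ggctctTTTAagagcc
Where the pattern was found, H4 genes had stems that no other class shared. In the longest annotated transcript, 3 bases followed the stem-loop in Hist1h2ap, 74 in Hist1h3c, 151 in Hist1h2ae, 840 in Hist1h1c, 1153 in Hist1h1e, 2010 in Hist1h2ac and 2445 in Hist4h4. No such pattern was found in the transcripts of Hist1h1b, Hist1h1a and Hist1h2bc, and that says only that these letters were not in them.

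Linker histone coding sequences are rich in lysine codons and so in A. The 20-base windows with the most A are shown for 3 H1 genes, with A in capitals; they held 14, 12 and 11 A.
Hist1h1b: AAgAAgAAgAcAAcgAAAAA
Hist1h1e: AAAAccgcAgccAAgAAAAA
Hist1h1c: AAAAAgAAggccgccAAgAA
The richest window of Hist1h2ap, outside its coding sequence, held 16 A. Such coding windows were not limited to H1: those of Hist2h2ab, Hist2h2be and Hist3h2ba held 12 A.

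Promoters of the same 3 H1 genes are shown because Hist1h1b and Hist1h1e followed S phase in these cells and Hist1h1c did so weakly or inversely, as described further on. They are RefSeq windows on GRCm38.p6, given 5′ to 3′ on the gene's strand, chr13:21780576-21780875 (minus strand) for Hist1h1b, chr13:23622509-23622808 (minus strand) for Hist1h1e and chr13:23738557-23738856 (plus strand) for Hist1h1c. Capitals mark, on either strand, the CCAAT box, the TATA box core TATAA and the H1 box with the letters AAACACA.
Hist1h1b: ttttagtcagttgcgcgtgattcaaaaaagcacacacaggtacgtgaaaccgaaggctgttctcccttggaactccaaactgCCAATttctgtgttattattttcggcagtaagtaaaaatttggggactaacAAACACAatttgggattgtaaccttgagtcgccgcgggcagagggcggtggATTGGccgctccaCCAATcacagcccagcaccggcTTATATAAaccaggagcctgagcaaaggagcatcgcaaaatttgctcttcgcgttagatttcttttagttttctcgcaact
Hist1h1e: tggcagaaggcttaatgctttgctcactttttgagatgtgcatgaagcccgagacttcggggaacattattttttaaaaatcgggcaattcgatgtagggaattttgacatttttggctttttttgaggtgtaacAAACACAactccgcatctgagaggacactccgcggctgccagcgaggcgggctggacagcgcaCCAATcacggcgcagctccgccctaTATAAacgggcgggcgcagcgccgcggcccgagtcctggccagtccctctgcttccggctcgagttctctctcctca
Hist1h1c: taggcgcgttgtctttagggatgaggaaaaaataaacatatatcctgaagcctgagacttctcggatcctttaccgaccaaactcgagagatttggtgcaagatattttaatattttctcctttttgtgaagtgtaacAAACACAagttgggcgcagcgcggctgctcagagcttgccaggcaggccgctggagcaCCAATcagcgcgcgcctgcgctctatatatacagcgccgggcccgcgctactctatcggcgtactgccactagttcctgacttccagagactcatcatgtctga
All 3 windows held the H1 box and a CCAAT box. The one of Hist1h1c held no TATAA, the only TATA letters searched, but it held TATATATA after its CCAAT box. RefSeq promoters were matched for 61 members, and 4 motifs were searched on both strands. The CCAAT box was in 85.2% of these members' windows, against 37.8% of 26963 other promoters, and the TATA box core in 80.3%, against 25.4%. The H1 box was in 14.8% of them, against 7.12% of the others, with 5 of its 9 windows among the 6 H1 genes. The octamer ATTTGCAT was in 23.0%, against 1.71%, with 7 windows each among H2A and H2B genes, some of which are divergent pairs whose windows overlap. The CCAAT box was in every window of the H1, H2A, H2B and H3 genes and in 3 of 12 windows of the H4 genes. A match is a description of the letters and no evidence of binding.

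Barcodes with at least 15000 UMIs (counted RNA molecules) and at most 10% mitochondrial UMIs were kept as cells, 9449 in the knockout and 6354 in the control. The median cell had 30513 UMIs and 5.02% mitochondrial UMIs in the knockout, and 37324 UMIs and 4.22% in the control. Zbtb16 had 341 UMIs, or 0.994 CPM (UMIs scaled to the library total, the unit used throughout), in the knockout and 6507 UMIs, or 22.2 CPM, in the control, a log2 ratio of -3.54. The libraries shared 16 cell barcodes, 0.169% of the knockout cells and 0.252% of the control cells. A CPM value has no correction for transcript length or capture, and a log2 ratio of a gene is that of CPM plus 1.

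Histone genes as a group had more UMIs in the knockout, and the linker histones made up most of the excess. Ratios over all cells, here and below, compare libraries made up of largely different cell clusters, as given further on. All 67 genes together had 879 CPM in the knockout and 474 CPM in the control, 1.85-fold higher (1.84 to 1.87). An average cell held 31.9 histone UMIs in the knockout and 21.8 in the control. H1 genes summed to 500.3 CPM in the knockout and 165 CPM in the control, 3.04-fold higher. H3 genes summed to 63.5 and 24.7 CPM, 2.57-fold higher in the knockout, and H4 genes to 74.2 and 46.4 CPM, 1.60-fold higher. H2A genes, at 199.6 CPM in the knockout and 198 CPM in the control, had a ratio of 1.01 (0.997 to 1.02). H2B genes, at 41.1 and 40.3 CPM, had a ratio of 1.02 (0.996 to 1.05). The core histone classes thus differed in size of ratio, with the intervals of H2A and H2B holding 1. An octamer holds each of them in equal number, but these values are UMIs of captured mRNA and do not measure histone protein. H1 held 56.9% of the histone UMIs in the knockout and 34.7% in the control, and H2A held 22.7% and 41.8%. Barcodes with 10 to 100 UMIs, which carry mostly free RNA, gave 503 CPM for all histone genes in the knockout and 276 CPM in the control, a ratio of 1.82. The part of free RNA in the cells' values was not tested.

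Of the 67 genes, 66 had a UMI in a library and 16 had a mean of at least 5 CPM, the level set for a value to be read alone. Among these 16, 9 had a 1.5-fold or greater excess in the knockout, 1 was at least that much lower, and 6 lay between. Over all 9977 genes at that level, 12.3% were that much higher and 6.1% that much lower. The median log2 ratio of the 16 was 0.86, and that of all genes was 0.02.

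**Figure D1:**
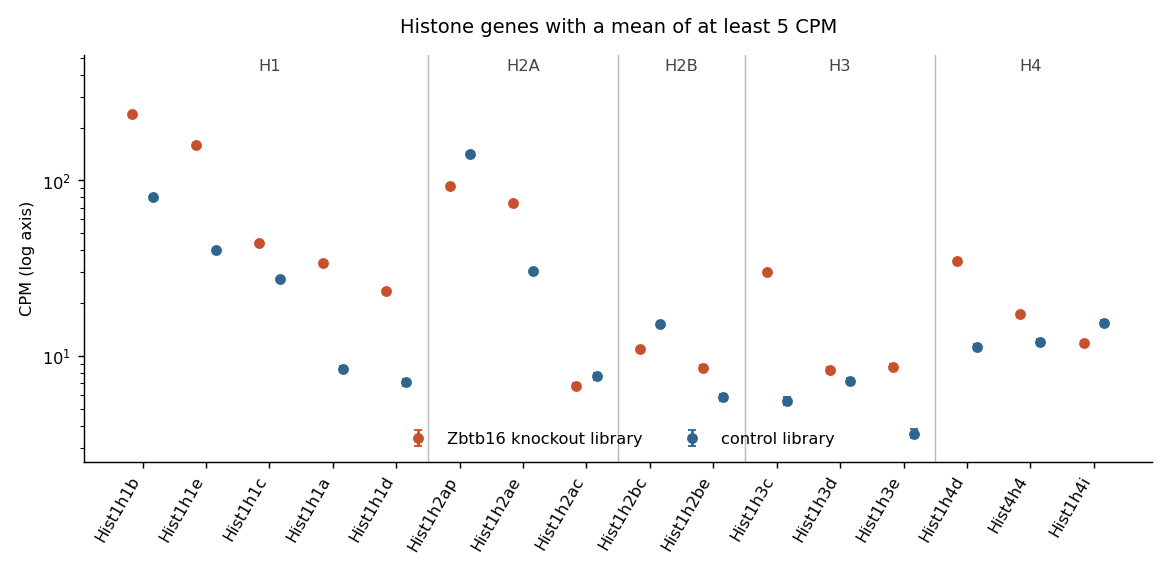
CPM (log axis) of the 16 histone genes with a mean of at least 5 CPM, with the knockout library on the left of each pair and the control library on the right, grouped by class. Bars are exact 95% Poisson intervals, mostly smaller than the points; all 5 H1 genes were higher in the knockout, and Hist1h2ap was lower.

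All 5 measured linker histone genes were higher in the knockout. Hist1h1b, which encodes the H1 variant also named H1f5, had 240.4 CPM in the knockout and 81.0 CPM in the control, a log2 ratio of 1.56. Hist1h1e (H1f4), one of the most widely expressed variants, had 159 CPM in the knockout and 40.3 CPM in the control, a log2 ratio of 1.95. Hist1h1a had 33.7 and 8.47 CPM (log2 ratio 1.87). These were among the steepest differences of the whole set, and the next H1 gene was close to them. Hist1h1d had 23.4 CPM in the knockout and 7.07 CPM in the control (log2 ratio 1.60). Hist1h1c (H1f2), an H1 gene known to be expressed in resting cells too, had 43.8 CPM in the knockout and 27.6 CPM in the control, a log2 ratio of 0.65. It was the H1 gene nearest the fold limit, and with each cell weighted equally its log2 ratio was 0.49, under the limit. The sixth H1 gene, Hist1h1t, known from the testis, had 46 UMIs in the knockout and 73 in the control.

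The sum of H2A hid a pair of abundant genes with opposite directions. Hist1h2ap had 93.01 CPM in the knockout and 141 CPM in the control, a log2 ratio of -0.60, just past the limit of -0.58 for a 1.5-fold lower value. Hist1h2ae, which encodes the same core histone, had 74.1 CPM in the knockout and 30.3 CPM in the control, a log2 ratio of 1.26. The third measured H2A gene, Hist1h2ac, had 6.73 and 7.65 CPM and did not pass the limit. Without Hist1h2ap, the remaining 66 genes summed to 786 CPM in the knockout and 333 CPM in the control, 2.36-fold higher. Whether reads of sister genes were placed on Hist1h2ap or Hist1h2ae was not tested.

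Both measured H2B genes lay within the limit and in opposite directions. Hist1h2bc had 10.9 CPM in the knockout and 15.2 CPM in the control (log2 ratio -0.44), and Hist1h2be had 8.53 and 5.82 CPM (log2 ratio 0.48). Among H3 genes, Hist1h3c had the highest ratio of all 16, with 30.3 CPM in the knockout and 5.54 CPM in the control, 5.46-fold higher (5.18 to 5.76). Hist1h3e had 8.68 and 3.61 CPM (log2 ratio 1.07), also past the limit, and Hist1h3d had 8.35 and 7.18 CPM (log2 ratio 0.19), which was not. Among H4 genes, Hist1h4d had 34.6 CPM in the knockout and 11.2 CPM in the control, a log2 ratio of 1.54. The other H4 genes moved less. Hist4h4, which lies alone on chromosome 6, had 17.2 and 12.01 CPM (log2 ratio 0.49), and Hist1h4i had 11.8 and 15.5 CPM (log2 ratio -0.36).

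The 51 histone genes under 5 CPM added little. They summed to 74.3 CPM in the knockout and 54.1 CPM in the control, and 36 were higher in the knockout and 14 in the control. Of these low genes, 9 were past the limit upward and 2 downward. Over all 15519 genes with a UMI and a mean under 5 CPM, 2.06% were past it upward and 3.04% downward. The histone genes past it downward were the neighbours on the Hist3 locus: Hist3h2ba had 0.991 CPM in the knockout and 5.10 CPM in the control (log2 ratio -1.62), and Hist3h2a had 3.33 and 6.28 CPM (log2 ratio -0.75). At the other end, Hist1h2an had 2.66 CPM in the knockout and 0.393 CPM in the control (log2 ratio 1.39).

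Across cells, histone UMIs followed the S phase genes in both libraries. Each cell was thinned to 15000 UMIs and ordered by the summed UMIs of 40 S phase genes, among them Pcna, the sliding clamp of DNA polymerase, and Mcm6, a subunit of the replicative helicase. All histone genes together had 1506 CPM in the top 25% of knockout cells and 271 CPM in the bottom 25%, a ratio of 5.56 (5.44 to 5.68). In the control they had 807 CPM in the top 25% and 191 CPM in the bottom 25%, a ratio of 4.23 (4.09 to 4.37). Cells with at least 30000 UMIs gave 3.87 in the knockout and 4.06 in the control, so which library had the steeper relation depended on the UMI minimum. The Spearman correlation per cell between histone UMIs and the S phase list was 0.57 over 9449 knockout cells and 0.50 over 6354 control cells. With Pcna and Mcm6 alone this correlation was 0.35 in the knockout and 0.33 in the control. With a list of G2 and M phase genes it was 0.41 in the knockout and 0.34 in the control. The points are cells of 1 library at equal depth, and these correlations are descriptions.

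**Figure D2:**
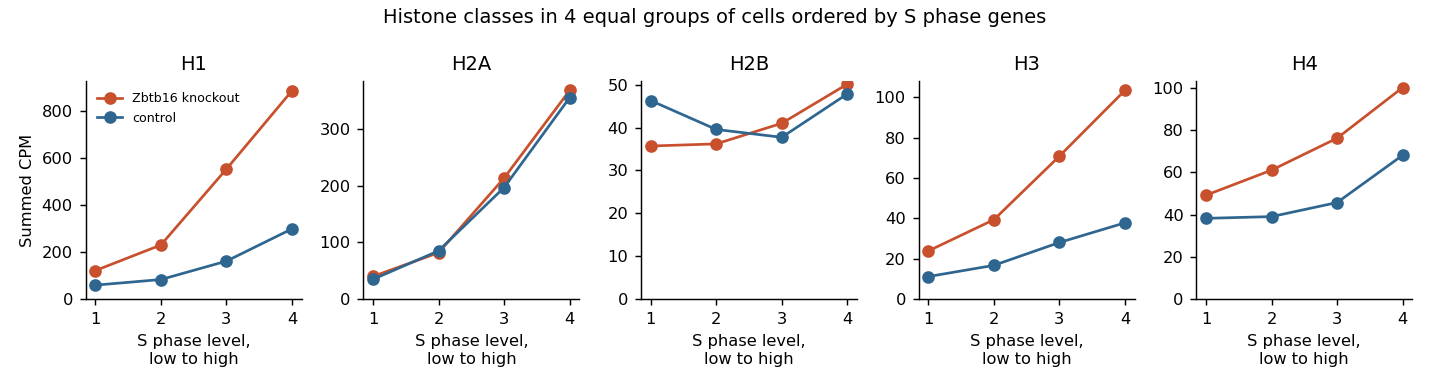
Summed CPM of each histone class in 4 equal groups of cells of each library, ordered from low to high UMIs of the S phase list; each point is 1 group of the knockout or the control library. H1, H2A, H3 and H4 climb in both libraries, H2A to about the same height, and H2B stays nearly flat.

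H2A genes had the steepest relation to S phase of the 5 classes in both libraries, with ratios of top to bottom cells of 9.12 in the knockout and 10.1 in the control. H1 genes followed with 7.26 in the knockout and 4.98 in the control. H3 genes had 4.32 and 3.36, and H4 genes 2.03 and 1.78. H2B genes had 1.40 in the knockout and 1.03 in the control, nearly flat as a sum. That sum held members with opposite directions. Hist1h2bc, the H2B gene with the highest mean CPM, had 0.296 and 0.354. Hist1h2be had 1.80 and 3.67, and Hist1h2bm, under 5 CPM, had 13.6 and 13.6. When cells were split at the median of both the S phase list and a list of G2 and M phase genes, histone levels were highest in cells high in both, at 1514 CPM in the knockout and 759 CPM in the control. Cells high in S phase genes alone had 804 CPM in the knockout and 461 CPM in the control. Cells high in G2 and M phase genes alone had 549.5 and 334 CPM, and cells low in both had 214 and 149 CPM. The knockout was above the control in each of these 4 groups.

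Single members differed widely in their relation to S phase. A set of 9 measured genes was at least 3-fold higher in the top than in the bottom 25% of cells in both libraries, a limit chosen after the values were seen. Hist1h1b had the highest ratio of top to bottom cells, 17.3 in the knockout and 33.7 in the control. Hist1h2ap had 11.9 and 18.0, Hist1h2ae 15.7 and 15.1, Hist1h1a 9.92 and 11.8, and Hist1h3c 11.4 and 6.70. The first of these climbed to 472 CPM in the top 25% of knockout cells and 173 CPM in the top 25% of control cells, against 27.2 and 5.12 CPM in the bottom 25%. Hist1h1e had a ratio of 6.80 in the knockout and 10.9 in the control, Hist1h1d 5.53 and 5.20, Hist1h4d 5.12 and 3.81, and Hist1h3e 3.30 and 3.05. Of these 9 genes, 8 were past the limit upward in the knockout and 1, Hist1h2ap, downward, where 12.3% and 6.1% of all genes were. How other genes with such S phase ratios moved between libraries was not tested.

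The other 7 measured genes were under that 3-fold limit in the knockout, and 5 of them in the control too. Of the 7, only Hist1h1c was past the limit between libraries, upward, where 12.3% of all genes were. Hist1h2bc was lower in cells with more S phase UMIs, with a ratio of 0.296 in the knockout and 0.354 in the control, and Hist1h4i with 0.610 and 0.656. Hist1h1c had 1.25 (1.17 to 1.33) in the knockout and 0.532 (0.479 to 0.590) in the control. Its level in the bottom 25% of cells was about the same in both libraries, 43.2 CPM in the knockout and 44.3 CPM in the control, and in the top 25% it was 53.8 CPM in the knockout and 23.6 CPM in the control. Hist4h4 had ratios of 1.61 and 4.26, Hist1h2be 1.80 and 3.67, Hist1h3d 1.41 and 2.71, and Hist1h2ac 1.36 and 2.32. All 4 followed S phase less steeply in the knockout than in the control, and in the control Hist4h4 and Hist1h2be were above 3.

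**Figure D3:**
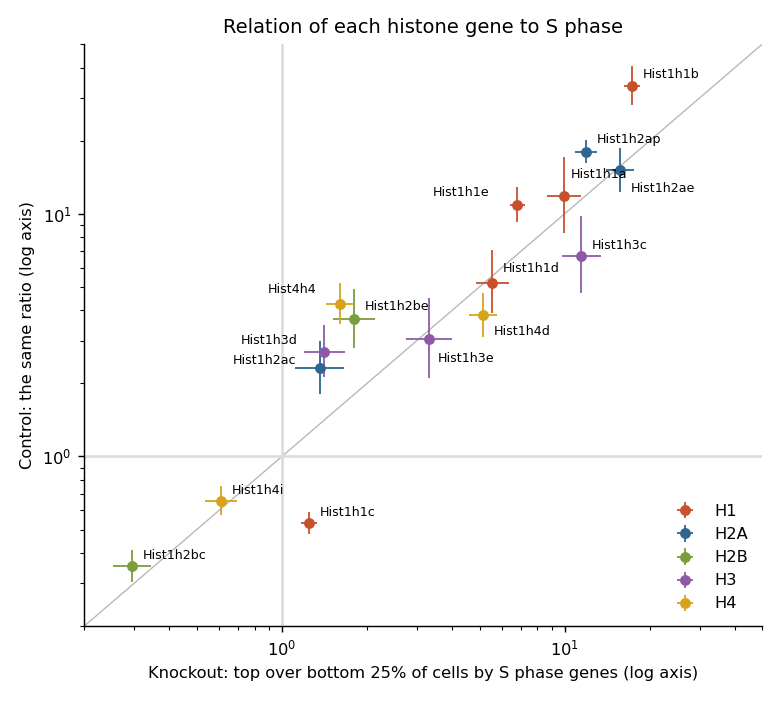
For each of the 16 measured histone genes, the ratio of CPM in the 25% of cells highest in S phase genes to the 25% lowest, in the knockout (x, log axis) and in the control (y, log axis), coloured by class. Bars are 95% counting intervals, the diagonal marks equal ratios and grey lines mark a ratio of 1; Hist1h2bc and Hist1h4i lie below 1 in both libraries, and Hist1h1c lies on opposite sides of 1.

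Per cell, the S phase members also went with each other, to different degrees. The Spearman correlation between Hist1h1b and Hist1h2ap was 0.72 in the knockout and 0.73 in the control, between Hist1h1b and Hist1h1e 0.73 and 0.58, and between Hist1h1b and Hist1h2ae 0.71 and 0.54. Pairs with less abundant S phase members were lower, above all in the control. The correlation was 0.50 in the knockout and 0.17 in the control between Hist1h1e and Hist1h3c, and 0.35 and 0.09 between Hist1h4d and Hist1h3c. Before thinning, Hist1h3c had 10388 UMIs over 9449 knockout cells and only 1622 over 6354 control cells. Few UMIs per cell limit such a correlation, so the gap between libraries was not read as weaker pairing. Between Hist1h1c and Hist1h1b it was 0.21 and 0.00. Among 3361 other genes with at least 50 CPM, those whose UMIs per cell were most like the histone sum were Pclaf, a partner of PCNA, with a mean Spearman correlation over both libraries of 0.56, Top2a (topoisomerase) with 0.54, Rrm2, which makes deoxynucleotides, with 0.53, and Fbxo5, an inhibitor of the anaphase-promoting complex, with 0.50. Rad51ap1, Smc2, Atad2, Cdk1, Smc4 and Mki67 completed the first 10, at 0.41 to 0.46. Rrm2, Rad51ap1 and Atad2 are on the S phase list, and Top2a, Cdk1 and Mki67 on the G2 and M phase list. Between libraries these 10 had no common direction: Pclaf had 434 CPM in the knockout and 457 CPM in the control, whereas Mki67 had 305 and 137 CPM.

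The S phase level of the libraries was close. The 40 S phase genes summed to 3654 CPM in the knockout and 3448 CPM in the control, with a median log2 ratio of 0.01, 5 genes past the limit upward, near the 12.3% of all genes, and 0 downward. Pcna had 193 and 197 CPM, and Mcm6 165 and 136 CPM. To compare cells of like S phase level, cells of both libraries were put together into 5 groups by their thinned S phase UMIs, an alternative added after the data were seen. From the lowest to the highest group, all histone genes were 1.38, 1.40, 1.66, 1.81 and 1.81-fold higher in the knockout. With the 5 groups weighted equally the sums were 778 CPM in the knockout and 457 CPM in the control, 1.70-fold higher. H1 genes were 1.93, 2.12, 2.83, 2.93 and 2.85-fold higher across the groups. H2A genes had ratios of 1.11, 0.768, 0.861, 0.939 and 1.02.

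Hist1h1e was 5.37-fold higher in the knockout in the lowest S phase group and 3.42-fold higher in the highest. Hist1h1c went the other way, with 1.03, 1.04, 1.63, 1.98 and 2.23. Hist1h2ap had a ratio of 0.956 in the lowest group and between 0.537 and 0.646 in the other 4. Hist4h4 was 2.64-fold higher in the knockout in the lowest group and had a ratio of 0.916 (0.811 to 1.03) in the highest, where the interval holds 1. Hist1h3c was between 2.32 and 5.69-fold higher in every group.

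Transcript length was a trend of its own in these libraries, and the short histone genes stood off it. Across 9974 genes, the Spearman correlation between the log2 ratio and transcript length was 0.47, so short transcripts were mostly lower in the knockout and long ones higher. Of the 538 other genes up to 1000 bases, the median log2 ratio was -0.25 and 3.16% were past the limit upward. Of the 7 measured histone genes up to 1000 bases, 5 were past it, and their median log2 ratio was 1.26. Those 5 were Hist1h3c with 630 bases, Hist1h2ae with 704, Hist1h1a with 741, Hist1h1b with 743 and Hist1h3e with 836. The trend at those lengths lay between -0.28 and -0.24, so the log2 ratio less the trend was 2.54 for Hist1h3c, 1.53 for Hist1h2ae, 2.13 for Hist1h1a, 1.82 for Hist1h1b and 1.31 for Hist1h3e.

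The other short members were Hist1h4i with 727 bases and Hist1h2ap with 482. Both lay close to the trend: less the trend, Hist1h4i had -0.10 and Hist1h2ap -0.28, so Hist1h2ap was no longer past the limit. Over all 16 genes, 12 lay above the trend, and the median log2 ratio was 1.02 less the trend on length and 1.01 less trends on length and GC content. Hist1h1d, annotated with 7425 bases, had a log2 ratio of 1.60, and 1.23 less the trend. Among the 16, the Spearman correlation between log2 ratio and length was -0.01. The Spearman correlation between the log2 ratio and the A in the richest window was -0.26 among the 16 histone genes and -0.04 among the 538 other short genes. Length is that of the longest annotated transcript, and which transcript was captured is not known.

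**Figure D4:**
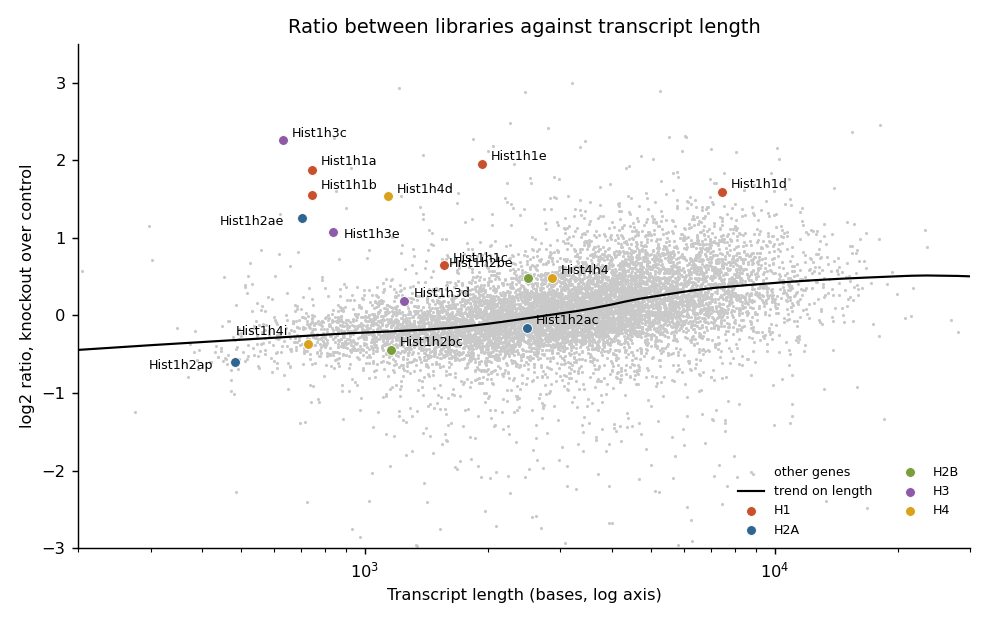
Log2 ratio of knockout over control against transcript length (log axis) for genes with a mean of at least 5 CPM; grey points are other genes, coloured points the 16 histone genes by class, and the black line the trend on length (39 genes lie outside the axes). Hist1h3c, Hist1h1a, Hist1h1b, Hist1h2ae and Hist1h3e lie far above the trend for short transcripts, and Hist1h2ap and Hist1h4i lie close to it.

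Genes that make and handle histone mRNA mostly lay within the limit. Of 18 measured genes of histone mRNA transcription and processing, 4 were past it upward, where 12.3% of all genes were, and 0 downward, with a median log2 ratio of 0.11. These are long transcripts, with a median of 4560 bases, and less the length trend, an alternative added after the data were seen, 1 was past it upward, Npat, and 1 downward, Upf1, with a median of 0.03. Npat, the transcription factor of the histone loci, had 59.4 CPM in the knockout and 29.3 CPM in the control (log2 ratio 0.99). Casp8ap2, which acts with NPAT, had 151 and 100.02 CPM (log2 ratio 0.59), only just past the limit. Eri1, an exonuclease that trims the stem-loop end, had 64.3 and 38.4 CPM (log2 ratio 0.73), and Tut4, a uridylyl transferase, had 240.4 and 146 CPM (log2 ratio 0.71). Slbp did not pass the limit, with 207 CPM in the knockout and 238 CPM in the control. It followed S phase in both libraries, with ratios of top to bottom cells of 2.45 in the knockout and 2.73 in the control.

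Histone chaperones, which carry histones to chromatin, were near equal. None of 19 measured chaperone genes was past the limit in either direction, where 12.3% of all genes were upward and 6.1% downward. Their median log2 ratio was 0.03. Nasp, the chaperone of H3 and H4 that also binds H1, had 472 CPM in the knockout and 495 CPM in the control. Of 15 genes of the poly(A) machinery, 0 were past the limit upward and 1 downward, near the 6.1% of all genes. The gene past it was Pabpn1, a nuclear poly(A)-binding protein, with 203 CPM in the knockout and 314 CPM in the control. Less the length trend, 0 poly(A) genes were past the limit upward and 0 downward. Of 36 G2 and M phase genes, 6 were past the limit upward, where 12.3% of all genes were, and 1 downward, where 6.1% were. Their median log2 ratio was 0.08. Less the length trend, 2 of these genes were past the limit upward and 0 downward, with a median of -0.02.

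Replacement histones are mostly made outside S phase too, from polyadenylated mRNA. Of 11 measured, 0 were past the limit upward and 2 downward, where 6.1% of all genes were, with a median log2 ratio of -0.40. Less the length trend the median was -0.26 and the same pair was past the limit. The pair past it were both linker histones: H1fx had 216 CPM in the knockout and 446 CPM in the control (log2 ratio -1.04), and H1f0, known to accumulate in cells that stop dividing, had 178 and 293 CPM (log2 ratio -0.71). H2afz, the gene of the variant H2A.Z, had 2417 and 3317 CPM (log2 ratio -0.46). H3f3a and H3f3b, both of which encode the variant H3.3, had log2 ratios of -0.25 and -0.18. Across S phase groups H3f3a had ratios of top to bottom cells of 0.955 in the knockout and 0.916 in the control, and H1f0 of 1.05 and 0.943, close to 1 in both libraries. H2afz had 1.64 and 1.49, so the replacement histones were not all alike in this.

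Cells were clustered without the histone genes, to see whether the difference also held inside a cell type. Of 16 clusters, 1 was endothelial-like, with 6 markers such as Cdh5, Cldn5 and Esam among its 10 leading genes, and 1 was endoderm-like, with 6 such as Ttr, Rbp4 and Apob. Both held cells of each library. Most of the rest held cells of 1 library almost alone, so no comparison inside them was made. Clusters named as cardiomyocyte-like took in 80.3% of the control library but only 2.0% of the knockout library. In the knockout, 88.7% of cells fell into clusters left without a name, against 13.1% in the control. Ratios over all cells therefore set mostly unlike cells side by side, and the part of this makeup in them was not tested. In endothelial-like cells (419 knockout and 278 control cells) histone genes had 949 CPM in the knockout and 509 CPM in the control, 1.86-fold higher (1.82 to 1.91). In endoderm-like cells (211 and 116 cells) they had 857 CPM in the knockout and 364 CPM in the control, 2.36-fold higher (2.26 to 2.45). H1 genes were 3.39-fold higher in endothelial-like and 4.44-fold higher in endoderm-like knockout cells.

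Of 15 histone genes measured in endothelial-like cells, 8 were past the limit upward, where 10.7% of all genes measured there were, and 2 downward, where 5.12% were. Those downward were Hist1h2ap, with 113 CPM in the knockout and 187 CPM in the control, and Hist3h2a, with 3.75 and 7.09 CPM. Of 18 measured in endoderm-like cells, 11 were past it upward, against 13.8% of all genes, and 1 downward, Hist3h2ba, against 6.02%. Hist1h2ap was nearly equal there, with 97.2 CPM in the knockout and 107 CPM in the control. Hist1h1e had 198 CPM in endothelial-like knockout cells and 45.7 CPM in endothelial-like control cells, and 159 and 25.3 CPM in endoderm-like cells. Hist1h3c had 25.9 and 6.50 CPM in endothelial-like cells, and 25.7 and 3.58 CPM in endoderm-like cells. The S phase list stood at 3939 CPM in endothelial-like knockout cells and 3859 CPM in endothelial-like control cells, and at 2868 and 2540 CPM in endoderm-like cells. The G2 and M phase list stood at 5120 and 4725 CPM in endothelial-like cells, and at 4274 and 3081 CPM in endoderm-like cells. The part of these cell cycle levels in the differences was not tested.

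**Figure D5:**
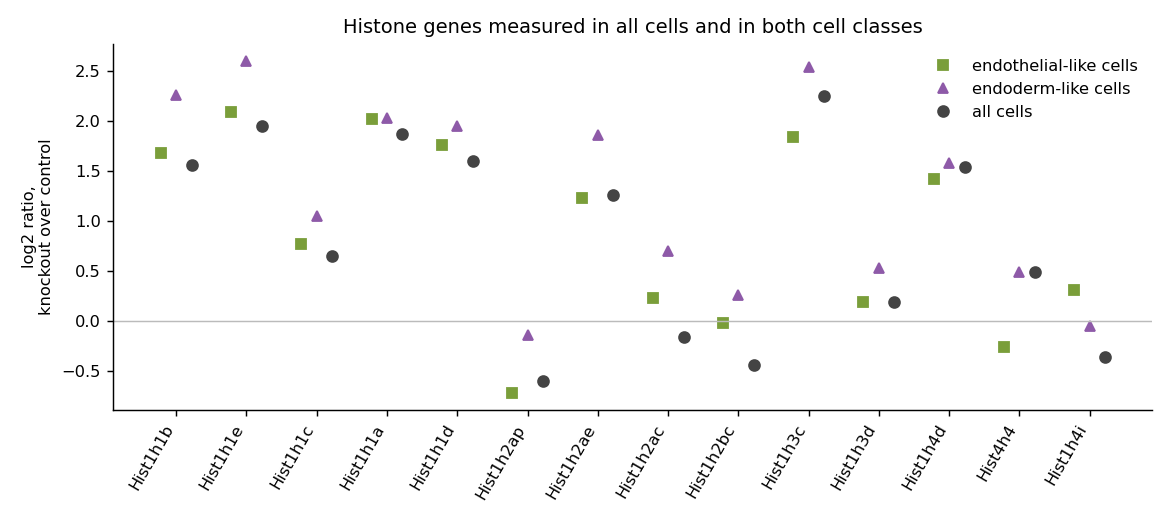
Log2 ratio of knockout over control for the 14 histone genes with a mean of at least 5 CPM in all cells and in both cell groups, in endothelial-like cells (squares), endoderm-like cells (triangles) and all cells (circles). The H1 genes, Hist1h2ae, Hist1h3c and Hist1h4d are above 0 in all 3, and Hist1h2ap is below 0 in all 3.

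A pluripotent-like cluster held 214 knockout cells and 30 control cells, too few in the control to compare. Its knockout cells had 1297 CPM of histone UMIs and 5521 CPM of the S phase list, above endothelial-like knockout cells in both. Over the 10 clusters with at least 50 knockout cells, histone genes lay between 207 and 1694 CPM after thinning. Over the 7 with at least 50 control cells they lay between 152 and 666 CPM. The highest cluster of the knockout was led by Postn, Tac2 and Nnat, and that of the control by Myl7, Sfrp5 and Ttn. Hist1h1a and Hist1h3c also stood among the 10 leading genes of that knockout cluster. No histone gene was used to form it, but S phase genes were not left out. Leading genes were ranked against clusters of both libraries, and both of these genes were higher in the knockout library as a whole. The Spearman correlation between the histone level and the S phase list over clusters was 0.83 in the knockout (10 clusters) and 0.86 in the control (7 clusters), as a description of clusters that share a library.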

How the data were processed

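Droplet libraries were made from trypsinised cells with a DNBelab C Series kit, per the labels' protocols, and the labels give no replicates. The authors deposited unfiltered, unnormalised counts of UMIs for each gene and barcode, written by Cell Ranger 4 per the file headers. Per the submitters' processing notes, R 4.1.1 was used and the build is named as GRCm39 and mm39; no source used here says how barcodes were brought to Cell Ranger. The knockout matrix held 357324373 UMIs and the control matrix 308465930, of which 96.0% and 94.8% lay in the cells kept.

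UMIs were summed over cells per library and turned into CPM; log2 ratios used a prior of 1 CPM, and genes with a mean of at least 5 CPM were read. Ratios carry conditional exact intervals. No doublets were removed. Cells were thinned to 15000 UMIs for S phase groups. Clusters used scanpy 1.11.5 and leidenalg 0.10.2 (2000 variable genes, 30 components, resolution 1). Clusters were named from at least 3 listed markers among 10 leading genes. Lengths came from GENCODE M21 by gene ID, and trends from lowess (statsmodels 0.14.6). The method was tested on simulated data. TMM factors came from edgeR 4.0.16 on the deposited counts. The histone genes, gene lists and markers were chosen with earlier results of these data known. Named were all members at 5 CPM or more, and list genes by level or size of ratio; Hist1h1t, the low members and further examples were named after their values were seen.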

Additional observations from a re-analysis of the deposited data

Results flagged for a closer look

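Hist1h1c had ratios of top to bottom cells by S phase genes that lay on opposite sides of 1 in the libraries. Its ratio of the top to the bottom 25% of cells was 1.25 in the knockout and 0.532 in the control, and each counting interval left out 1. From the lowest to the highest 25% of knockout cells it had 43.2, 39.5, 42.8 and 53.8 CPM, which was no steady climb. Per cell, its Spearman correlation with the S phase list was weak, 0.10 in the knockout and -0.04 in the control. With the G2 and M phase list it was 0.13 and 0.03. The difference between the libraries was not tested, since each group has 1 library. When cells were split by both lists, the control level of Hist1h1c was highest in cells low in S phase genes and high in G2 and M phase genes. It had 52.6 CPM in such knockout cells and 52.1 CPM in such control cells, against 56.8 CPM in knockout cells and 25.6 CPM in control cells high in both. Cells low in both had 32.9 CPM in the knockout and 29.3 CPM in the control. Cells high in S phase genes alone had 36.6 and 21.7 CPM.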

How the results depend on the processing

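No paired analysis was possible because there was only 1 library per group. The log2 ratio of the histone sum, 0.89, was 1.00 in cells with at least 30000 UMIs, 0.98 at a limit of 5% mitochondrial UMIs (4645 knockout and 5088 control cells), 0.87 without the 6% of cells with most UMIs, 0.91 with TMM scaling and 0.88 with each cell weighted equally. Among alternatives added after the data were seen, it was 1.24 without Hist1h2ap and 0.77 at equal S phase level. The count of 9 genes past the limit upward became 18 with no filter beyond 1 UMI. The count of 1 past it downward became 3 with no filter and 0 at 5% mitochondrial UMIs, with TMM scaling, with equal weights, less the length trend, less the length and GC trends and with a prior of 5 CPM; at 30000 UMIs it was 1, but Hist1h2bc in place of Hist1h2ap. The ratio of top to bottom cells was 2.87 in the knockout and 2.60 in the control by Pcna and Mcm6 alone, 5.75 and 4.46 with no thinning, 3.87 and 4.06 at 30000 UMIs, 4.77 and 3.97 at 5% mitochondrial UMIs, and 5.71 in the knockout without the 6% of cells with most UMIs. The cause of these changes was not tested. The ratios in endothelial-like and endoderm-like cells moved by less than their counting intervals under 3 other cluster settings. These settings kept the same or nearly the same cells, so they could show little change. Endothelial-like cells, for example, numbered 419 or 420 in the knockout and 273 or 278 in the control. The pluripotent-like ratio was not run. The sum of H2B changed sign with equal weights (log2 -0.05). No value past the limit changed sign among 176 combinations of result and setting. These 176 include counts and values within the limit, which could not be marked as reversed. Depth limits the 51 genes under 5 CPM.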
